A study of Drosophila melanogaster with 13 samples.

Results

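Testes of aly mutant males were compared directly with testes of sa mutant males, genotypes in which spermatocytes arrest before the meiotic divisions. The comparison used 6 of the 13 arrays of the series, 3 from aly[2]/aly[5p] and 3 from sa[1]/sa[2], chosen by the genotype in the labels. Both are pairs of mutant alleles of the named gene, and the labels mention no transgene or treatment. Males were 0 to 1 day old, fly cultures were kept at 25 °C, and testes were frozen without their seminal vesicles and accessory glands. Each sample was total RNA from whole testes on an Affymetrix Drosophila 2 array. The 3 arrays that the labels call WT, given as red[1], e[1] in the genotype field and as red[1]/e[1] in the titles, appear only as a reference level. Replicates are called biological. The labels leave unsaid if each had its own cross, so p-values measure the spread between these samples.

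The aly gene (always early) encodes a subunit of tMAC, a testis-specific relative of the dREAM complex that acts at promoters in primary spermatocytes. The product of sa (spermatocyte arrest) is 1 of the testis TAFs, TBP-associated factors made in the testis, and replaces a general subunit of the transcription factor TFIID. Both sets of proteins are needed for primary spermatocytes to transcribe genes that are used in meiosis and in spermatid differentiation. The aly class of meiotic arrest genes is known for acting on transcripts of the meiotic cell cycle regulators as well, whereas the class to which sa belongs acts mainly on spermatid differentiation genes.

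Values are log2 signals of probe sets, for which about 2 is the floor and 4 was taken as the limit of dim signal. Testing covered the 8272 genes whose probe set exceeded 4 in 3 or more of these 6 arrays. A gene at or below 4 in every array of a genotype passed only through the other genotype, so the filter fixed its direction. Differences are aly minus sa on the log2 scale, so a positive difference means higher in aly. A gene was called where limma's adjusted p was under 0.05 and the difference at least 2-fold. Where all arrays of the dimmer genotype lay at or below 4, the fold is a bound against 4, written as at least N-fold. In whole testes, fewer cells of a type and less RNA per cell cannot be told apart, and the labels do not give the cell composition of either genotype.

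Of 18952 probe sets, 8822 to 8883 exceeded 4 in the aly arrays, 9572 to 9613 in the sa arrays and 9338 to 9461 in the WT arrays. Pearson's r across probe sets was 0.9881 to 0.9962 between arrays of the same genotype and 0.9030 to 0.9203 between aly and sa arrays. For actin 5C, the excess of 3' over 5' signal, which grows with RNA breakdown, was 2.45, 2.73 and 2.27 in the aly arrays, against 2.75, 2.44 and 4.76 in the sa arrays. The GAPDH excess was 3.01, 3.20 and 3.47 in the aly arrays, and 4.15, 3.98 and 4.89 in the sa arrays. For eIF4a it was 2.55, 2.71 and 2.55 in the aly arrays and 3.19, 2.72 and 3.75 in the sa arrays. All sa arrays thus exceeded all aly arrays for GAPDH and eIF4a, so these signs of RNA quality differ between the genotypes as a whole. In all 3 controls sa replicate 3 had the highest value, and values of named genes that move by over 1.5 times without it are given both ways. The signal of 18S ribosomal RNA (middle probe set) was 10.42, 9.49 and 9.34 in the aly arrays and 6.99, 12.92 and 12.61 in the sa arrays. The part of these differences in RNA quality in the results below was not tested. Levels beside WT depend on the scale: the 27 cytosolic ribosomal protein genes averaged 14.37 to 14.56 in aly and 14.42 to 14.50 in sa, but 12.90 to 13.24 in WT, so that centring on them lowers the mutants beside WT, by 1.32 for aly and 1.35 for sa. All levels are given on the deposited scale. The testis TAF genes other than sa were bright in both genotypes, at 10.07 or more in all 6 arrays, whereas many other testis genes named below were dim in aly.

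The direct contrast called 3423 of 8272 genes, or 41.4%. In aly, 1645 genes (19.9%) were called higher than in sa and 1778 (21.5%) lower. The calls were near balance in number, but not in size. With values under 4 raised to 4, 564 genes (6.82%) were at least 16-fold lower in aly, and 26 (0.314%) at least 16-fold higher. Even at 64-fold, 185 genes were lower and 1 was higher, the sa gene itself. In 801 genes all aly arrays lay at or below 4 while all sa arrays lay above it, and the reverse held for 149. The arrays of aly and sa did not overlap in 5736 genes, or 69.3%, so a lack of overlap is common here. The median difference over all genes tested was 0.08, and for 2941 genes (35.6%) the 95% interval of the difference lay within 2-fold either way.

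**Figure D1:**
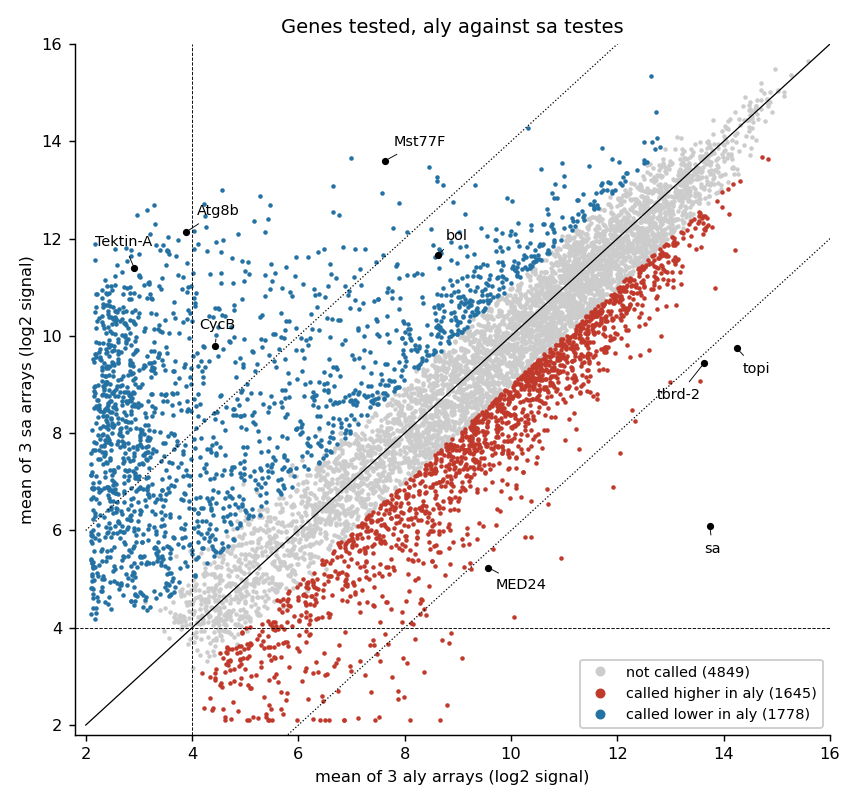
Mean log2 signal of the 3 sa arrays (vertical) against the mean of the 3 aly arrays (horizontal), 1 point per tested gene, with calls in colour. The solid line marks equality, the dotted lines 16-fold differences and the dashed lines a log2 value of 4. Many of the genes called lower in aly lie left of 4, while sa, topi and MED24 lie far below the line of equality.

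The mutated genes were read in every array. The sa gene read 13.79, 13.69 and 13.74 in the aly arrays and 6.15, 6.25 and 5.84 in the sa arrays, against 10.80 to 11.13 in WT. Its 3 sa arrays lay far below both other genotypes, and the difference of 7.66 (SE 0.15, adjusted p = 3.83e-08, limma) was the largest rise of the contrast. The aly gene read 7.29, 7.34 and 7.23 in the aly arrays and 6.67, 6.74 and 7.81 in the sa arrays, against 5.95 to 6.28 in WT. These groups overlap and the difference of 0.21 was not called (SE 0.32, adjusted p = 0.578, limma), so the transcript does not serve as a check of the aly label. Where the probes lie relative to the lesions of either gene is not given.

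Several genes of the transcription machinery itself were higher in aly than in sa. Of the 9 genes for tMAC subunits and their partners, 4 were called higher and none lower, with differences from 0.21 to 4.50 and a median of 0.75. In all, 44.4% were called, against 41.4% over all genes tested, where 19.9% were called higher. The DNA-binding zinc finger subunit gene topi (matotopetli) read 14.42, 14.18 and 14.14 in the aly arrays, against 9.69, 9.62 and 9.92 in the sa arrays. The groups are well apart, with WT between them at 10.98 to 11.18, and topi was 22.7-fold higher in aly (difference 4.50, SE 0.13, adjusted p = 3.87e-08, limma). The homeodomain partner gene vis (vismay) read 12.96, 12.78 and 12.98 in aly and 10.52, 10.71 and 10.61 in sa (difference 2.29, SE 0.11). The gene tomb (tombola), for the other DNA-binding subunit, read 12.07, 12.31 and 12.11 in aly and 10.22, 10.55 and 10.74 in sa (difference 1.66, SE 0.15). For vis and tomb all aly arrays again lay above all sa arrays. The gene comr (cookie monster) read 10.61, 10.34 and 10.54 in aly and 9.20, 9.58 and 9.70 in sa, a difference of 1.00 that only just reached 2-fold (SE 0.17). It came under 2-fold at 0.95, 0.98 and 0.86 without aly replicate 1, aly replicate 3 or sa replicate 1. Genes of subunits that are shared with other complexes were not called. Their differences were 0.75 for the gene of the histone-binding WD40 subunit (SE 0.12, adjusted p = 0.000611, limma) and 0.45 for mip40 (SE 0.09, adjusted p = 0.00265, limma). The vis paralog achi and the lin-52 relative wuc (wake-up-call) each gave 0.75, like the WD40 subunit gene, and neither was called. Whether probes of the paralogs vis and achi share signal was not examined.

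Testis TAF genes did not move as a group. The gene mia (meiosis I arrest) read 11.77, 11.54 and 11.71 in aly and 10.26, 10.37 and 10.19 in sa, and the gene can (cannonball) read 11.76, 11.23 and 11.65 in aly and 10.48, 10.62 and 10.07 in sa. Both were called higher in aly, mia by 1.40 (SE 0.12) and can by 1.16 (SE 0.19), though can came to 1.00, short of 2-fold, without sa replicate 3. The gene nht (no hitter) read 12.72, 12.88 and 12.75 in aly and 12.04, 12.23 and 11.85 in sa, and its 0.74 was under the 2-fold minimum (SE 0.12, adjusted p = 0.00062, limma). Taf12L (rye) went the other way, at 12.80, 12.72 and 12.73 in aly and 14.16, 14.09 and 13.95 in sa (difference -1.32, SE 0.09, adjusted p = 2.4e-06, limma). All 4 of these genes stood above their WT level in both mutants on the deposited scale, as the plot of machinery genes shows, though can in sa and Taf12L in aly by less than the shift of the ribosomal protein genes. Counting sa, 3 of 5 testis TAF genes were called higher and 1 lower, with a median of 1.16.

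**Figure D2:**
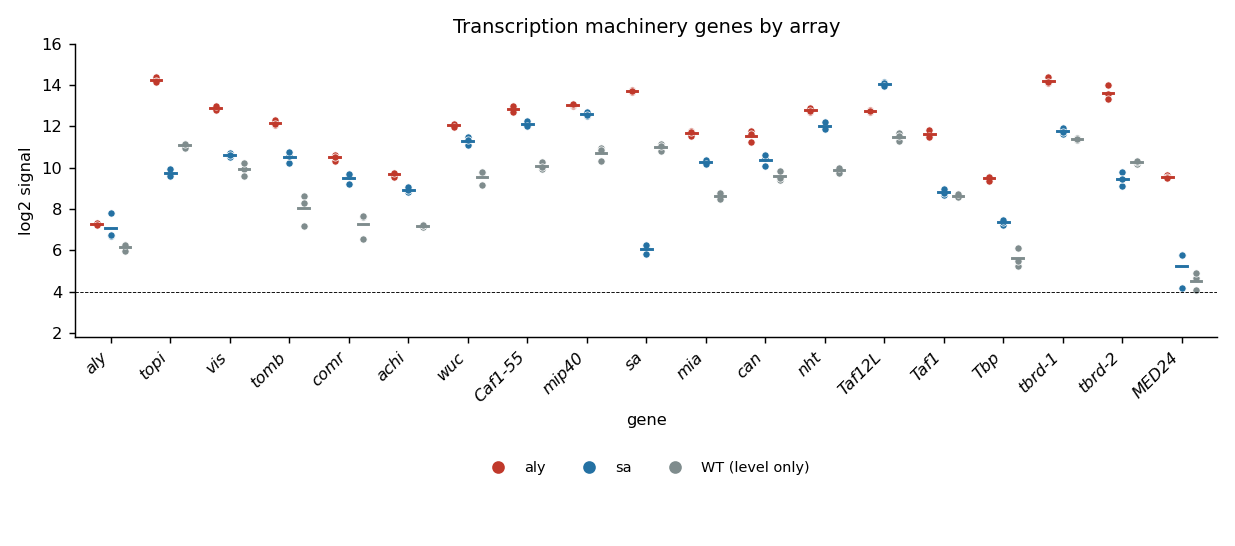
Log2 signal in each array (points) and group mean (bars) for tMAC and partner genes (aly to mip40), testis TAF genes (sa to Taf12L), Taf1, Tbp, bromodomain genes and MED24. For each gene the aly arrays are left, sa in the middle and WT right, and the dashed line marks 4. The sa arrays of topi and tbrd-2 lie below those of both aly and WT, while Taf12L is higher in sa than in aly.

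The general TFIID genes were mixed, with 4 of 14 members called higher in aly, 1 lower, and a median of 0.48. In all, 35.7% were called, against 41.4% over all genes tested. Taf1, the largest TFIID subunit, read 11.83, 11.54 and 11.47 in aly and 8.67, 8.79 and 8.96 in sa, with WT at 8.56 to 8.71. The sa and WT arrays of Taf1 lay close together and the aly arrays well above (difference 2.81, SE 0.15, adjusted p = 8.11e-07, limma). The TATA-binding protein gene Tbp was higher in aly by 2.14 (SE 0.18), Taf10 by 1.63 (SE 0.18) and the TBP-related gene Trf by 1.33 (SE 0.15), whereas Taf10b was lower by 1.14 (difference -1.14, SE 0.11). The largest adjusted p among these calls was 7.88e-05 (limma).

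Genes of spermatocyte chromatin regulators were higher in aly in 7 of 10 tested members and lower in none, with a median of 1.64 against 0.08 over all genes. The testis bromodomain gene tbrd-2, whose product binds acetylated histones in spermatocytes, read 13.99, 13.58 and 13.34 in aly and 9.10, 9.81 and 9.43 in sa, with WT at 10.20 to 10.33. All sa arrays lay below WT and all aly arrays above it, and the difference was 4.19 (SE 0.22, adjusted p = 5.62e-07, limma), or 18.2-fold. Its relative tbrd-1 read 14.38, 14.11 and 14.14 in aly and 11.65, 11.93 and 11.71 in sa, where sa lay near the WT level of 11.37 to 11.44 (difference 2.44, SE 0.11). The third of these genes, tbrd-3, was higher by 1.66 (SE 0.17), the Polycomb methyltransferase gene E(z) by 1.98 (SE 0.17) and the insulator gene mod(mdg4) by 1.72 (SE 0.12). Among genes of dREAM, Rb and E2F proteins, 3 of 8 were called higher and none lower, 37.5% called against 41.4% over all genes tested. The called members were mip130 (difference 2.13, SE 0.22), Rbf2 (2.34, or 2.20 with values raised to 4) and lin-52 (1.01, SE 0.22). The call of lin-52 was lost at 0.92, 0.91 and 0.87 without aly replicate 3, sa replicate 1 or sa replicate 2.

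Mediator, the coactivator that links factors to RNA polymerase II, had 7 of 26 members called higher in aly and 3 lower, with a median of 0.38. That is 38.5% called, against 41.4% over all genes tested. MED24 read 9.64, 9.55 and 9.51 in aly and 4.17, 5.78 and 5.76 in sa, with WT at 4.05 to 4.90. Only the aly arrays were bright, and the difference was 4.33 (SE 0.42, adjusted p = 2.85e-05, limma). MED16 (2.01, SE 0.27), the kinase module cyclin gene CycC (1.81, SE 0.21) and MED14 (1.76, SE 0.14) were also higher. MED26 read 8.54, 8.79 and 8.42 in aly and 11.24, 10.35 and 8.98 in sa. Its sa replicate 3 lay nearest to the aly arrays, and the difference of -1.61 (SE 0.48, adjusted p = 0.0174, limma) was -2.21 without that array. Without aly replicate 3 (adjusted p = 0.0557, limma) or sa replicate 2 (adjusted p = 0.0649, limma) it was not called.

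Several meiotic cell cycle regulators were lower in aly than in sa. Of 14 tested genes of this list, 6 were called lower, 1 higher and 7 neither, with a median of -0.65. That is 50% called, against 41.4% over all genes tested. CycB, the B-type cyclin of the meiotic divisions, read 4.26, 4.11 and 4.93 in the aly arrays and 9.70, 9.89 and 9.80 in the sa arrays, with WT at 7.71 ± 0.29 (SD, n = 3). The aly arrays were near the limit of dim signal while the sa arrays lay above WT, and CycB was 41.1-fold lower in aly (difference -5.36, SE 0.26, adjusted p = 4.04e-07, limma). The RNA-binding protein gene bol (boule), needed for translation of twe, read 8.69, 8.54 and 8.65 in aly and 12.31, 12.12 and 10.57 in sa, with WT at 12.87 to 13.35. All sa arrays of bol lay above all aly arrays, with sa replicate 3 lowest (difference -3.04, SE 0.40, adjusted p = 0.00021, limma, and -3.59 without sa replicate 3). The Cdc25 phosphatase gene twe (twine) read 5.64, 5.24 and 5.59 in aly and 7.39, 7.38 and 7.14 in sa, with WT at 7.15 to 7.54. The sa and WT levels of twe overlap, and the aly arrays lay below both (difference -1.82, SE 0.23, adjusted p = 0.00014, limma). After quantile normalization the difference of twe was smaller, at -1.01, and still called.

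Among the other members called lower, the anaphase-promoting complex activator gene fzr2 read 5.83, 5.59 and 5.85 in aly and 8.48, 8.49 and 9.17 in sa, against 11.85 to 12.34 in WT (difference -2.96, SE 0.25). The germline translation initiation factor gene eIF4G2 (off-schedule), which is required for meiosis, read 11.07, 10.52 and 10.71 in aly and 13.61, 13.43 and 11.79 in sa. Its sa replicate 3 again lay nearest to aly, and its difference was -2.18 (SE 0.43), or -2.76 without that array. The member called higher, named after its values were seen, was aurB (Aurora B kinase), at 10.94, 10.99 and 10.84 in aly and 9.03, 9.32 and 9.42 in sa (difference 1.67, SE 0.15, adjusted p = 1.93e-05, limma).

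Genes of meiotic chromosomes ran mostly the other way, with 6 of 11 tested members higher in aly, 1 lower and a median of 1.43. The gene sunn (sisters unbound), for sister chromatid cohesion in meiosis, read 6.58, 6.09 and 6.93 in aly and 3.09, 2.88 and 3.18 in sa, at least 5.79-fold higher. The cohesin-related gene SA2 was higher by 2.18 (SE 0.18) and the kleisin gene c(2)M by 2.00 (SE 0.21). The lower member was tef (teflon), needed for pairing of autosomes in male meiosis, at 5.29, 4.54 and 4.94 in aly and 7.36, 7.69 and 6.26 in sa (difference -2.18, SE 0.39, adjusted p = 0.00127, limma). For tef the aly arrays were near the WT level of 3.66 to 5.06 and the sa arrays above it.

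DNA replication genes were higher in aly in 10 of 17 tested members and lower in none, with a median of 1.23. PolA1, the catalytic subunit of DNA polymerase alpha, read 8.75, 8.42 and 8.51 in aly and 4.46, 5.69 and 5.67 in sa, and was dim in WT at 3.49 to 3.60 (difference 3.29, SE 0.35). The origin recognition genes Orc1 (2.83, or 2.82 with values raised to 4) and Orc2 (2.61, SE 0.26) and the replicative helicase genes Mcm5 (2.39, SE 0.22) and dpa (2.35, SE 0.20) gave like differences. These 5 were picked as the called members with the largest differences, and their largest adjusted p was 5.37e-05 (limma). None overlapped between aly and sa, and neither did 69.3% of all genes tested.

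Early germline genes, which mark stem cells and spermatogonia, were called higher in aly in 6 of 17 cases and lower in 2, with a median of 0.38. In all, 47.1% were called, against 41.4% over all genes tested. The differentiation gene bam (bag of marbles) read 10.14, 10.07 and 9.83 in aly and 8.64, 8.80 and 8.73 in sa, against 4.40 to 5.77 in WT. Both mutants lay above WT, and aly was higher than sa by 1.29 (SE 0.16, adjusted p = 0.000127, limma). The piRNA pathway genes spn-E (1.43, SE 0.15) and mael (1.12, SE 0.13) were also higher. The stem cell factor gene esg (escargot) read 6.76, 6.40 and 7.06 in aly and 2.45, 3.06 and 2.57 in sa, with WT at 7.07 to 7.80. Unlike bam, esg was dim only in sa, and it was at least 6.67-fold higher in aly. The call of AGO3 as lower (-1.22, adjusted p = 0.05 after rounding, limma) rested on overlapping arrays and was lost without any of 5 arrays, the exception being sa replicate 3, without which the difference was -1.82. The other member called lower, named after its values were seen, was nanos. It read 7.89, 7.63 and 8.17 in aly and 8.75, 9.04 and 9.04 in sa, without overlap (difference -1.05, SE 0.21, adjusted p = 0.00212, limma). Without aly replicate 2 no member of this list was called lower. Transcript of vas did not pass the filter.

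The 15 largest falls were genes of spermatid differentiation or testis copies of housekeeping genes for the most part, and all were bright in WT. Atg8b, a testis copy of the autophagy gene Atg8, read 3.36, 4.45 and 3.83 in the aly arrays and 12.22, 11.94 and 12.23 in the sa arrays, against 14.02 to 14.45 in WT. Its aly arrays were at or near the dim limit, and its difference was -8.25 (SE 0.29), or -7.98 with values raised to 4. Tektin-A, a filament protein gene of the sperm flagellum, read 2.90, 2.95 and 2.90 in aly and 11.64, 11.41 and 11.12 in sa, at least 168-fold lower in aly. Porin2, a mitochondrial outer membrane channel gene, read 5.30, 5.34 and 4.88 in aly and 12.33, 12.18 and 12.57 in sa (difference -7.18, SE 0.20), so some signal was left in aly. Further members were Mst27D (at least 207-fold lower), the ubiquitin ligase gene sinah (at least 150-fold lower), saturn (at least 116-fold lower), Hsc70-2 of the Hsp70 family (difference -7.18, SE 0.30), ssp5 (-7.05, or -6.99 with values raised to 4) and salto (-6.94, or -6.81 so raised). The 15 genes were picked as the largest falls, and their largest adjusted p was 4.91e-06 (limma). Those with an at-least fold passed the filter only through the sa arrays, so the filter fixed their direction. Ranking passed over 69 genes known only by a CG or CR number, and such genes made up 416 of the 564 genes that were at least 16-fold lower.

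These 564 genes were low in aly and intermediate in sa. Their median level was 4.00 in aly, 9.74 in sa and 12.53 in WT, with quartiles of 8.87 and 10.78 in sa and of 11.63 and 13.25 in WT. In 378 of them all aly arrays lay at or below 4. The sa mean was at least 2-fold below the WT mean in 500, within 2-fold of it in 50 and at least 2-fold above it in 14. Centred on ribosomal protein genes, a setting chosen after seeing the data, these counts were 544, 15 and 5. Since the genes were chosen for the difference between aly and sa, these levels are a description.

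**Figure D3:**
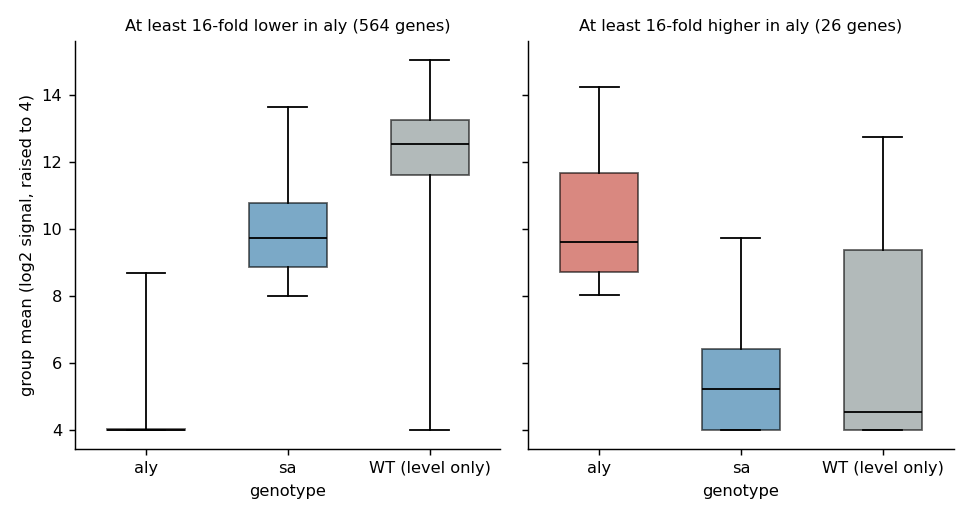
Group means (log2 signal, values under 4 raised to 4) of the genes at least 16-fold lower in aly (left panel) and at least 16-fold higher in aly (right panel). Boxes give the quartiles, lines the medians and whiskers the full range. For the 564 lower genes the median is 4.00 in aly, 9.74 in sa and 12.53 in WT.

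Sperm chromatin genes were called lower in aly in 5 of 8 cases and higher in none, with a median of -1.33. Mst77F, a linker-histone-like protein gene of the sperm nucleus, read 7.86, 7.60 and 7.44 in aly and 13.89, 13.64 and 13.29 in sa, with WT at 14.99 to 15.10. Signal in aly was well above background, yet 62.6-fold lower than in sa (difference -5.97, SE 0.19, adjusted p = 4.66e-08, limma). Mst33A read 2.68, 2.55 and 2.68 in aly and 11.36, 10.70 and 9.57 in sa, at least 93.3-fold lower. It passed the filter only through sa, so the filter fixed its direction. The protamine gene ProtB read 5.22, 4.78 and 5.42 in aly and 9.03, 7.89 and 7.80 in sa (difference -3.10, SE 0.36), with both mutants far under the WT level of 13.07 to 13.56. Its near-identical neighbour ProtA differed by -1.01 (SE 0.18). Signal of the pair may mix on the probes, and the call of ProtA was lost at -0.96, -0.90 and -0.89 without aly replicate 1, aly replicate 2 or sa replicate 1. The transition protein gene Tpl94D was lower by 1.66 (difference -1.66, SE 0.25).

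Not all spermatid genes separated the genotypes. Of 13 tested genes of the Mst and don juan group, 4 were called lower and none higher, and the median was 0.12. That is 30.8% called, against 41.4% over all genes tested. Among the 13, 2 (fzo and dj) passed the filter only through sa, so the filter fixed their direction. The mitochondrial fusion gene fzo (fuzzy onions) read 3.11, 3.11 and 2.71 in aly and 9.12, 9.09 and 8.64 in sa, at least 31.0-fold lower in aly. The sperm tail gene dj (don juan) read 2.67, 2.33 and 2.26 in aly and 7.63, 7.35 and 5.72 in sa, at least 7.46-fold lower, or at least 11.2-fold without sa replicate 3, and its relative djl read 4.80, 2.64 and 4.31 in aly and 11.26, 10.61 and 9.73 in sa (difference -6.61, or -6.16 with values raised to 4). Mst87F was bright in both, at 12.47, 12.74 and 12.75 in aly and 14.16, 13.96 and 13.84 in sa, and fell less (difference -1.33, SE 0.12). The other 9 members gave differences between -0.91 and 1.10, and none was called, though 2 were called higher without sa replicate 1 and 1 without aly replicate 3.

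Genes transcribed after meiosis, named for cups and comets because their transcripts sit at the distal ends of spermatid bundles, were split. Of 8 cup genes, 5 were called lower in aly and 1 higher, with a median of -5.30, or -4.13 with values raised to 4. For 4 of the 8 all aly arrays lay at or below 4, so the filter fixed their direction. The gene c-cup read 2.83, 3.34 and 2.78 in aly and 10.52, 10.19 and 10.47 in sa, at least 84.2-fold lower. The gene w-cup read 2.45, 2.29 and 2.19 in aly and 10.89, 9.17 and 7.82 in sa, at least 39.2-fold lower (22.6-fold without sa replicate 1, 65.3-fold without sa replicate 3), with a wide spread among the sa arrays. Its difference of -6.98 became -6.18 without sa replicate 1 and -7.72 without sa replicate 3. Of 5 comet genes, sunz (at least 9.24-fold lower) and boly (difference -3.06, SE 0.18) were called lower, and hale (1.51, SE 0.11) and schuy (1.22, SE 0.22) higher. The gene hale read 12.55, 12.56 and 12.40 in aly and 10.98, 10.89 and 11.11 in sa, with WT at 12.54 to 12.68, so that sa was the low genotype.

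**Figure D4:**
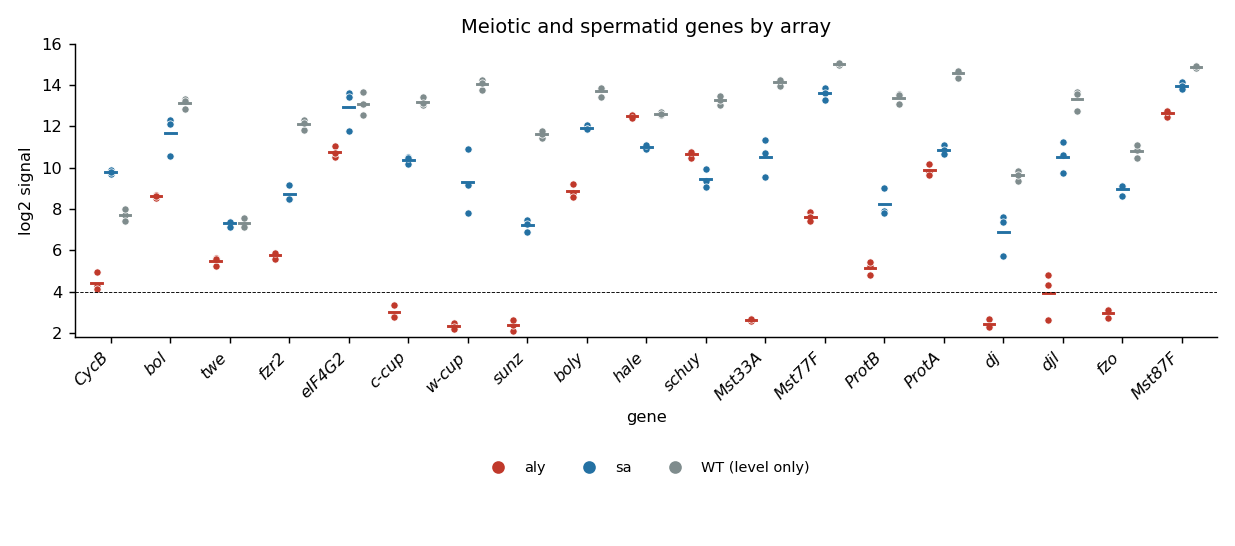
Log2 signal in each array (points) and group mean (bars) for meiotic regulators (CycB to eIF4G2), cup and comet genes (c-cup to schuy), sperm chromatin genes (Mst33A to ProtA) and genes of the Mst and don juan group. For each gene the aly arrays are left, sa in the middle and WT right, and the dashed line marks 4. For c-cup, w-cup, sunz, Mst33A, dj and fzo all aly arrays lie under 4, whereas hale and schuy are higher in aly than in sa.

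Axoneme genes were lower in aly in 9 of 14 tested members and higher in 2, with a median of -3.95, or -3.03 with values raised to 4. In 7 of these 14 all aly arrays lay at or below 4, so they passed the filter only through the sa arrays. Besides Tektin-A these included the dynein light chain genes robl62A, at 2.76, 3.32 and 2.93 in aly and 11.38, 11.13 and 11.25 in sa (at least 153-fold lower), and robl22E, at 3.76, 4.38 and 4.03 in aly and 10.82, 10.45 and 10.75 in sa (difference -6.62, or -6.54 with values raised to 4). Tektin-C read 6.97, 5.44 and 5.46 in aly and 11.67, 11.47 and 11.76 in sa (difference -5.67, SE 0.39). Another 8 members did not pass the filter, among them the Y-linked dynein genes kl-2, kl-3 and kl-5.

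Testis copies of organelle and proteasome genes were another large group of falls. Of 17 tested testis copies of mitochondrial and glycolytic genes, 12 were called lower and 1 higher, with a median of -4.07, or -2.65 with values raised to 4. Among the 17, 8 were at or below 4 in all aly arrays and passed the filter only through sa. The import receptor copy tomboy20 read 2.38, 3.15 and 3.02 in aly and 11.92, 11.54 and 11.84 in sa, at least 218-fold lower. The cytochrome c oxidase subunit copy COX5BL was at least 142-fold lower and the ATP synthase coupling factor copy ATPsynCF6L at least 126-fold lower. Of 13 vacuolar ATPase copies, 10 were called lower and none higher, with a median of -3.07, and 3 of the 13 passed the filter only through sa. The catalytic subunit copy Vha68-3 read 3.05, 3.02 and 3.41 in aly and 11.01, 10.62 and 10.72 in sa, at least 110-fold lower. Vha16-5 kept signal in aly, at 6.17, 6.30 and 6.24, against 10.43, 10.57 and 10.34 in sa and 10.01 to 10.48 in WT (difference -4.21, SE 0.17), so for this copy sa and WT overlapped.

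Among 12 testis proteasome copies, 6 were called lower and 2 higher, with a median of -1.83, and 5 of the 12 passed the filter only through sa. Prosbeta5R1, a copy of a catalytic core subunit, read 2.40, 2.63 and 2.60 in aly and 11.04, 10.89 and 11.21 in sa, at least 132-fold lower. Prosalpha6T, the core subunit that replaces its general form in late spermatogenesis, was at least 78.6-fold lower. The general proteasome had no member called among 26, with a median of 0.26 and 95% intervals within 2-fold for 24. Without the 2-fold minimum, 13 general proteasome genes had an adjusted p under 0.05 with higher signal in aly and 1 with lower (limma). The core subunit genes Prosalpha7 (14.61, 14.54 and 14.43 in aly, 14.17, 14.30 and 14.31 in sa) and Prosalpha2 (14.48, 14.48 and 14.46 in aly, 14.11, 14.22 and 14.29 in sa) each differed by about 0.3 (differences 0.26 and 0.27).

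Cytosolic ribosomal protein genes differed little. Of 27 cytosolic ribosomal protein genes none was called, all 27 intervals lay within 2-fold, and the median was -0.05, or 0.05 with arrays centred on the median of all genes. Without the 2-fold minimum, 1 of these had an adjusted p under 0.05, with lower signal in aly (limma). Of 11 testis copies, 3 were called lower, 1 higher and 7 neither, 36.4% called against 41.4% over all genes, with a median of 0.24. RpL10Aa read 2.65, 2.71 and 2.47 in aly and 9.72, 9.41 and 9.94 in sa, at least 51.5-fold lower, and RpL22-like was higher in aly by 1.68 (SE 0.21).

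Among ubiquitin genes, Roc1b, the RING subunit of a Cullin ligase used in spermatids, read 4.43, 3.92 and 4.09 in aly and 8.72, 8.44 and 8.66 in sa, against 13.07 to 13.12 in WT (difference -4.46, or -4.44 with values raised to 4). The polyubiquitin gene Ubi-p63E read 14.76, 14.64 and 14.73 in aly and 13.77, 13.67 and 13.57 in sa, with WT at 14.65 to 14.90. The aly and WT arrays of Ubi-p63E overlapped, and its difference of 1.04 (SE 0.08, adjusted p = 7.94e-06, limma) came to 0.99, short of 2-fold, without sa replicate 3 and to 0.97 after quantile normalization.

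Cap-binding and eIF4G genes showed both directions. The testis cap-binding gene eIF4E4 read 3.52, 3.78 and 3.62 in aly and 10.78, 10.28 and 10.38 in sa, at least 89.2-fold lower. The general form eIF4E1 was lower by 1.27 (difference -1.27, SE 0.13), whereas eIF4E3, required for male meiosis, was higher by 1.21 (SE 0.09) and the translational repressor gene eIF4EHP by 2.34 (SE 0.24). Of the leucyl aminopeptidases, which are abundant sperm proteins, S-Lap5 was lower (difference -5.35, SE 0.20) and S-Lap7 too (difference -2.16, SE 0.11). The aminopeptidase gene S-Lap2 was called higher (1.05, SE 0.10), short of 2-fold at 0.96 without sa replicate 2.

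**Figure D5:**
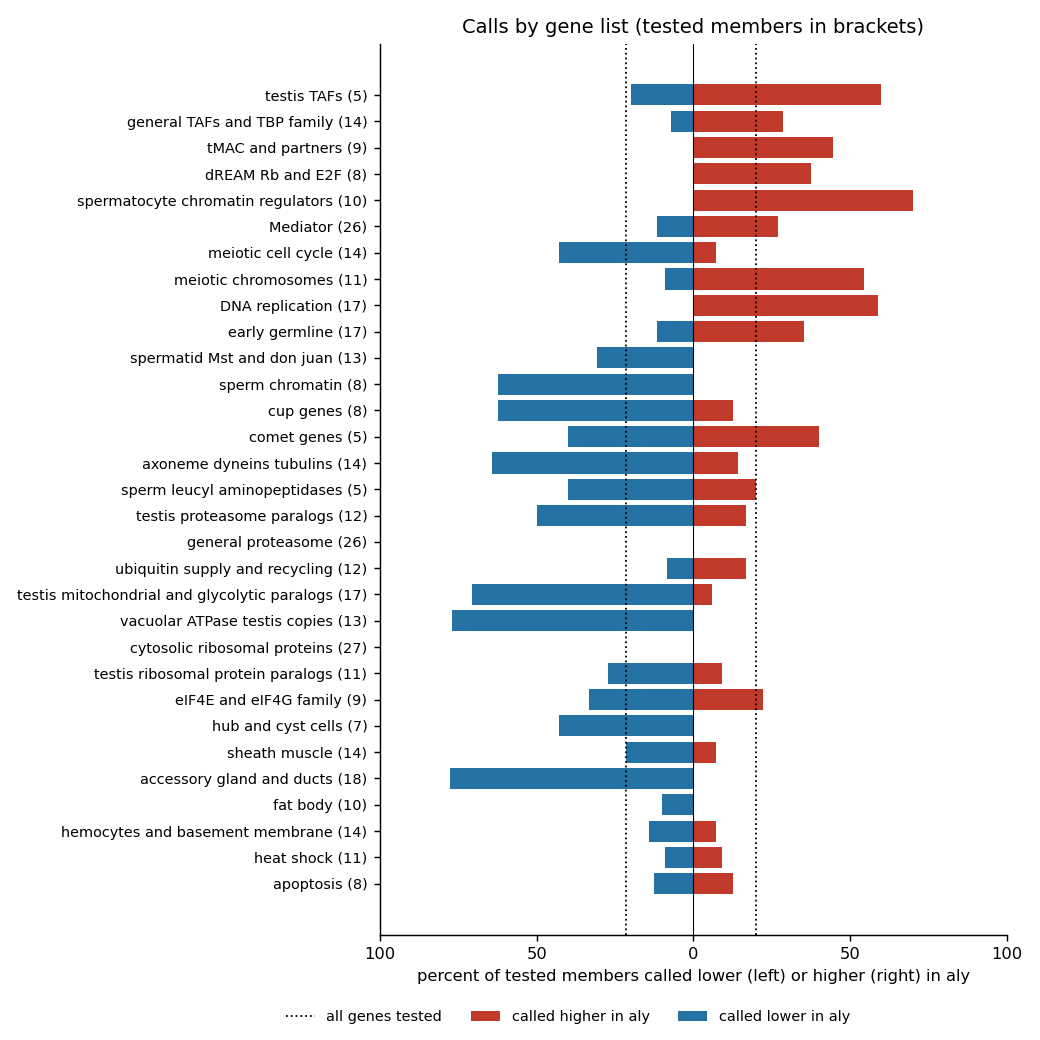
Percent of the tested members of each gene list called lower (bars to the left) or higher (bars to the right) in aly against sa. The dotted lines mark the shares over all genes tested, 21.5% lower and 19.9% higher. Spermatocyte chromatin, replication and meiotic chromosome genes reach to the right, while testis copies of vacuolar ATPase and mitochondrial genes reach to the left. Mediator and general TFIID genes pass the right dotted line by less.

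The genes at least 16-fold higher in aly were 26, and 16 of them had only a CG or CR number. Their median level was 9.61 in aly, 5.22 in sa and 4.55 in WT. The aly mean was at least 2-fold above WT in 21, and the sa mean was within 2-fold of WT in 13 and at least 2-fold below it in 9, or in 6 and 19 when centred on ribosomal protein genes. Besides sa, topi, tbrd-2 and MED24, the 15 largest named rises held the superoxide dismutase-like gene Sodq, at 8.64, 8.85 and 9.15 in aly and 3.82, 3.89 and 3.95 in sa (at least 29.4-fold higher). The alkaline phosphatase gene Alp8 read 7.98 to 8.34 in the 3 aly arrays and 2.11 ± 0.004 in sa (SD, n = 3), near the floor, and was at least 17.2-fold higher, with WT also at 2.11. The palmitoyltransferase gene Patsas gave 5.14 (SE 0.28), or 4.74 with values raised to 4, and the GPI anchor gene PIG-X 4.39 (SE 0.22). The RNase P subunit gene Rpp14b (4.13, SE 0.24) differed from these in that WT, at 9.13 to 10.01, was above both mutants. Some genes are better known from other tissues, among them the photoreceptor channel gene trpl (at least 15.6-fold higher), the oocyte yolk receptor gene yl (3.98, or 3.90 with values raised to 4) and the cuticle protein gene Cpr76Bc (at least 15.9-fold higher). The pseudogene 18SrRNA-Psi:CR41602, at least 14.6-fold higher, may share sequence with ribosomal RNA, so its value is uncertain.

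Markers of other cell types were counted in the same contrast. Accessory gland and duct genes were called lower in aly in 14 of 18 tested cases, with a median of -1.49, although the glands had been removed. Acp36DE read 8.34, 7.05 and 9.33 in aly and 10.71, 11.80 and 11.37 in sa, while WT spread from 10.75 to 14.16. Its difference was -3.05 (SE 0.52, adjusted p = 0.000969, limma), and -2.46 without aly replicate 2. The summed signal of the list, on a log2 scale, was 13.94 to 14.46 in aly, 14.83 to 16.12 in sa and 14.90 to 17.86 in WT. Only 9 of these genes were called when all 13 arrays were fitted together, and 7 without the filter on dim genes. Their part in the results above was not tested.

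Hub and cyst cell genes were called lower in 3 of 7 tested members (5 of 7 without sa replicate 3) and higher in none. With all arrays that is 42.9% called, against 41.4% over all genes tested. The N-cadherin gene CadN read 2.83, 3.01 and 2.91 in aly and 6.10, 6.40 and 5.63 in sa, at least 4.12-fold lower. The E-cadherin gene shg read 6.21, 5.23 and 5.58 in aly and 8.70, 8.61 and 8.59 in sa (difference -2.96, SE 0.28), with WT at 5.28 to 5.36, so here sa was the high genotype. The markers upd1, zfh1, tj, ptc and mirr did not pass the filter. Summed signal of the list was 9.74 to 10.23 in aly, 10.80 to 11.20 in sa and 10.36 to 10.84 in WT.

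Sheath muscle genes were called lower in 3 of 14 cases (5 without sa replicate 3) and higher in 1, TpnC73F, a call that was lost without aly replicate 1, sa replicate 2 or sa replicate 3 (0.96, 0.87 and 0.98). Summed muscle signal was 11.61 to 12.40 in aly, 12.26 to 13.01 in sa and 13.98 to 14.44 in WT. The actin gene Act87E was lower in aly (difference -2.04, SE 0.31). Of 10 fat body genes, apolpp was called lower (difference -4.47, or -4.21 with values raised to 4) and none higher, the yolk protein genes Yp1, Yp2 and Yp3 did not pass the filter, and the summed ranges of 12.86 to 13.24 in aly and 12.89 to 13.28 in sa overlapped. Of 14 hemocyte and basement membrane genes, Hml was called higher (2.30, SE 0.29) and 2 lower, 4 lower without aly replicate 3 or sa replicate 3 and 1 without aly replicate 2. Their summed ranges were 12.76 to 13.42 in aly and 12.75 to 13.11 in sa. Heat shock genes had 1 of 11 called in each direction, Hsf higher (1.14, SE 0.14) and Hsc70-2 lower. Apoptosis genes likewise had 1 of 8 each way, with the Apaf-1 relative gene Dark higher (2.14, SE 0.18) and the Bcl-2 family gene Debcl lower (difference -1.16, SE 0.14). Without sa replicate 2 there were 2 calls in place of 1 for fat body genes (lower), hemocyte genes (higher), heat shock genes (lower) and apoptosis genes (higher). With all arrays, 28.6% of sheath muscle, 10% of fat body and 21.4% of hemocyte genes were called. For heat shock genes it was 18.2% and for apoptosis genes 25%, all below the 41.4% over all genes tested. The part of any of these cell types in the results was not tested.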

How the data were processed

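RNA of whole testes was measured on 13 Affymetrix arrays, of which 6 entered the test and 3 WT arrays served as a level. The deposited values are log2 probe set signals that the authors background-corrected and normalized with GCRMA, per the submitters' processing notes; its version and the genome build are not given in the sources used here. Values share a floor of 2.1019, and the authors' scanner files were not used here. The array holds 18952 probe sets, 183 of them controls. Exactly 1 gene symbol was given for 13646, several for 402 and none for 4721. Of the 13646, 13543 were found in the RefSeq gene table of Release 6 plus ISO1 MT, used only for names, chromosomes and neighbours.

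Probe sets of exactly 1 symbol above 4 in at least 3 of the 6 arrays were kept (8701), and the brightest stood for its gene (8272 genes). The contrast of aly minus sa was fitted with limma 3.58.1 in R 4.3.3 (lmFit, eBayes with an intensity trend) and adjusted by Benjamini-Hochberg over all genes tested. Calls needed an adjusted p under 0.05 and a 2-fold difference. With 3 arrays per genotype, 4 residual degrees of freedom limit the precision. The fit was tested on simulated data. Counts and plots used Python 3.11.15.

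The groups, the 31 gene lists and the rules were chosen with earlier results of these data known, and 5 genes were taken out of lists after their values were seen because their function did not belong there. Lists hold genes that testes also express. Genes named in the text are the mutated genes, all testis TAF and tMAC genes, twe, bol and CycB, the 15 largest rises and falls whose arrays do not overlap (ranked with values under 4 raised to 4, passing over symbols of a CG or CR number), and up to 5 called members per list with the largest difference, or 2 bright members where none was called. Names outside this rule were chosen after their values were seen. Deviations of same-numbered aly and sa arrays correlated at 0.238, -0.295 and 0.038, and those of arrays with unlike numbers at -0.334 to 0.254. With 3 arrays per genotype, these values cannot settle whether the numbers pair aly with sa arrays. Spike-in controls set replicate 3 of each genotype apart, as given below, and the main fit used no pairing or block. Alternatives covered the filter, the normalization and centring, the variance model, the fold and p limits, the probe set, the arrays fitted, blocks and leaving out each array. Planned promoter motifs were not examined.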

Additional observations from a re-analysis of the deposited data

Results flagged for a closer look

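Probe sets outside the gene comparison also differed between aly and sa. Of 727 probe sets with no gene symbol that passed the same filter, 227 were called (31.2%), 110 higher and 117 lower in aly, against 41.4% of the 8701 probe sets with exactly 1 symbol. Of 286 probe sets that pair with several symbols, 118 were called (41.3%), 42 higher and 76 lower in aly. Both sets drew attention because they hold signal that the comparison of named genes left out.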

How the results depend on the processing

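Without the fold minimum 5346 genes were called, 2878 of them higher in aly, and with a 4-fold minimum 1692 were called, 438 higher. Quantile normalization raised the median of all genes by 0.15, gave 3739 calls with 58% of them higher in place of 48.1%, kept 3119 of the 3423 calls, turned the sign of 10, and gave 50 genes at least 16-fold higher. Centring on the median gave 52.2% higher. The medians of the cytosolic ribosomal protein, comet, ubiquitin, sheath muscle, hemocyte and apoptosis lists changed sign between scalings. Leaving out each array gave 3193 to 3746 calls, 1473 to 1795 higher, 1668 to 1951 lower, 24 to 32 at least 16-fold higher and 551 to 576 at least 16-fold lower, and 2929 of the 3423 genes were called each time. The highest counts of calls came without sa replicate 3 (3746). The replicate block, by array number, gave 3464 calls and kept all 3423. Spike-in controls set replicate 3 of each genotype apart (BioC 6.92, 7.27 and 9.55 in aly, 5.09, 5.74 and 9.02 in sa, 5.94, 4.64 and 9.42 in WT). For that reason 2 alternatives were chosen after seeing the data: replicates 1 and 2 alone gave 3817 calls and a block of the replicate 3 arrays 3454. With array weights, whose fit stopped before it converged and gave sa replicate 3 a weight of 0.163 and sa replicate 2 one of 17.4, 3637 were called. None of the 146 named genes changed sign in any setting. Of further probe sets of called genes, 148 of 171 ran in the same direction and 7 ran at least 2-fold against it. The promoter motifs planned as a description were not run. Genes at or below 4 in all aly arrays have only a bound, and 3 arrays per genotype limit what differences could be called. The median SD among bright genes was 0.15 in aly and 0.24 in sa.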

Other observations

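Genes called lower in aly lay beside each other in places. Among tested genes in chromosome order, the longest runs without interruption held 11 genes on 2L around Tektin-A (median difference -6.61), 11 on 2R around boly (median -6.42) and 10 on 3R that include glob2, sowi and sunz (median -5.87). The longest run of genes called higher held 6, on 2L around Nnf1b (median 2.38). Genes between tested neighbours that did not pass the filter are not counted. These genes were named after their values were seen.

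By chromosome, the share of tested genes called higher in aly was 22.1% on X and 18.8% on 2L, and the share called lower was 16.4% on X and 24.9% on 2L. After quantile normalization the shares higher were 30.1% on X and 24.5% on 2L, and the shares lower 14.9% on X and 22.3% on 2L, which turned the order of the shares on 2L. On the small chromosome 4, 17 of 34 tested genes were called lower and 2 higher (Rnf11 and Zip102B), with a median of -1.22. Of these 34 genes, 31 had their lowest sa value in sa replicate 3, the array with the largest 3' excess in its controls, against 35.5% of all genes tested. The transcription factor gene ci, chosen after its values were seen, read 3.66, 3.89 and 4.11 in aly and 8.07, 7.90 and 5.74 in sa. Calls on chromosome 4 numbered 26 without sa replicate 3, but 12 without sa replicate 1 or sa replicate 2, and 14 after quantile normalization. From the Y, 1 gene passed the filter: the phosphatase gene Pp1-Y2 read 2.87, 2.18 and 2.44 in aly and 7.42, 7.37 and 6.62 in sa, at least 8.80-fold lower in aly.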
